A study of Mus musculus with 6 samples.

Results

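Basement membrane genes were examined in bulk-seq of whole spinal cords taken at postnatal day 4 from Taiwanese type I SMA mice and their heterozygous controls. The genes were chosen by name as the collagen IV, laminin and nidogen genes Col4a1, Col4a2, Lama1, Lama2, Lama4, Lama5, Lamb1, Lamc1, Nid1 and Nid2, and all 10 were found among the 25576 genes listed in at least 1 library. SMA mice lacked mouse Smn on both alleles (mSmn-/-) and carried the human SMN2 transgene on 1 chromosome of the pair (hSMN22tg/0), while control mice had 1 intact mouse allele (mSmn+/-) and the same hSMN22tg/0 transgene. The line is kept on an FVB background, and since controls were heterozygous, no library came from a mouse with 2 intact Smn alleles. There were 3 libraries for each group. The study's methods give triplicates with n = 1 per group, and do not make clear whether the libraries of a group came from separate animals. The p-values therefore measure only the spread between these libraries, which may be technical.

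Basement membranes are thin sheets of matrix on which endothelial cells sit and which enclose Schwann cells, muscle fibres and the surface of the spinal cord. Laminins, trimers of an alpha, a beta and a gamma chain, assemble on the cell surface through integrins and dystroglycan, collagen IV forms a second, covalently linked network that gives mechanical strength, and nidogens bind both. In the cord these proteins surround the capillaries of the blood-spinal cord barrier, line the pia beneath the astrocyte endfeet and coat the nerve fibres of the roots, and endothelial cells, pericytes, astrocytes, fibroblasts and Schwann cells are among the cells known to make them.

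Levels are given in FPKM, a fragment count scaled to exon length and to sequencing depth, and the values of a group are always listed from replicate 1 to replicate 3. Smn1, the targeted gene, was at 10.4, 8.64 and 11.9 FPKM in the controls and at 8.48, 9.30 and 11.1 FPKM in the SMA libraries (log2 fold change -0.09, exact two-sided permutation p = 0.6), which turned to 0.01 without control replicate 3. These values overlapped and leave the genotypes unchecked, because a value for the whole gene does not show which exons were transcribed. The libraries are therefore called by their labels, and each direction below rests on those labels.

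Depth in reads is unknown, as FPKM hold no counts, and the most frequent ratio of low values put the libraries at 1 to 1.14 times the depth of SMA replicate 1. The tissue label was borne out by neuronal and Hox genes, with Meg3 between 675 and 978 FPKM and Hoxb8 between 59.0 and 116 FPKM in the 6 libraries. Control replicate 2 stood apart: the 15 hepatocyte markers summed to 32571 FPKM there and to between 58.1 and 123 FPKM in the other libraries, and all 15 were more than 2 times their next highest value. Alb, the most abundant of them, reached 15894 FPKM in control replicate 2, and Tat was at 0 in control replicate 1. The 9 neuronal markers summed to 1973 FPKM in control replicate 2, against 2472 to 2956 FPKM in the other libraries. For the 9 astrocyte markers the sum was 649 FPKM there, against 829 to 916 FPKM. SMA replicate 3 stood apart in another way, with Pmp2, a lipid-binding protein of peripheral myelin, at 0 against 1.96 to 6.82 FPKM in the other libraries. Selected results are also given without one of these libraries.

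The first question was whether the basement membrane genes differed between the libraries labelled SMA and control. All 10 had a log2 fold change below 0, beside 42% of all genes tested, although that of Lama5 turned to 0.07 under quantile normalization. The share of all genes below 0 was 50.8% under median ratio scaling and 49.6% without control replicate 2. SMA replicate 3 was lowest for all 10, so their directions are not separate observations. The median of the 10 was -0.44 against 0.044 over the 17088 genes tested, but none of the 10 passed the test. The test was limma on log2(FPKM + 1), run on genes whose mean reached 0.5 FPKM, with Benjamini-Hochberg adjustment across every gene tested. Fold changes on this scale understate the change of genes with low FPKM. The two-sided adjusted p-values of the 10 genes ranged from 0.683 to 0.977 in limma, and 0 of 10 reached an unadjusted p of 0.05 in either direction. Over all genes 0% passed an adjusted p of 0.05, while at an unadjusted p of 0.05 in limma 409 genes (2.39%) were lower and 581 (3.4%) were higher. Groups without overlap were found for 0 of 10 genes, beside 6.67% of all genes with every SMA library lower and 10.3% with every SMA library higher. Scaling by median ratios changed the split of all genes to 565 lower and 528 higher. Lama4 was then lower at an unadjusted p of 0.05 while the other 9 genes were not. With the replicate number as a block, Lama2 and Lama4 were lower at that p, where 303 of the 17088 genes were lower and 356 higher.

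**Figure D1:**
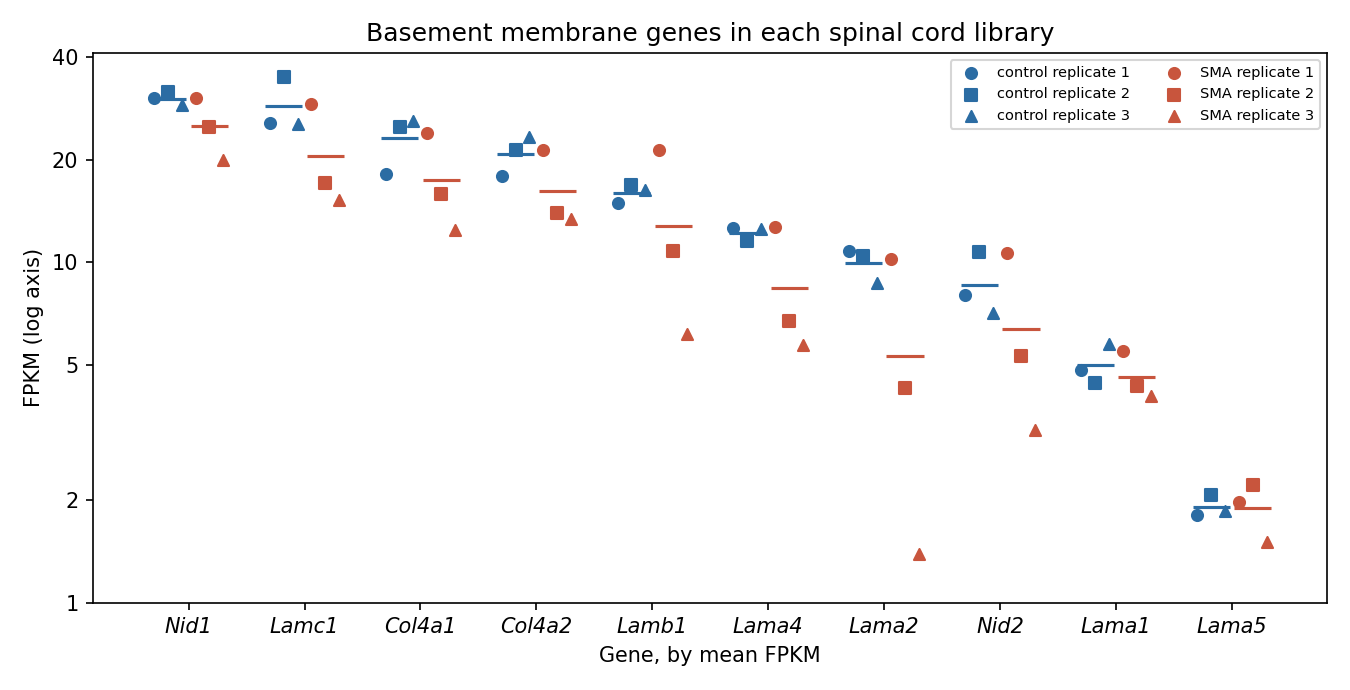
FPKM of the 10 basement membrane genes in each library on a log axis, with genes in the order of their mean; horizontal lines mark the mean of each group of 3 libraries. SMA replicate 3 is lowest for all 10 genes, while SMA replicate 1 lies among or above the controls.

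The libraries labelled SMA were not alike. SMA replicate 1 lay within the range of the controls for 8 of 10 basement membrane genes and above it for Lamb1 and Lama4, beside 62.2% and 23.6% of all genes. SMA replicate 3 held the lowest value for 10 of 10 basement membrane genes, against 11.9% of all genes, while control replicate 2 was lowest for 0 of the 10 and for 44.9% of all genes, a pattern noticed after the values were seen. The summed FPKM of the 10 genes was 145, 169 and 156 in the controls and 167, 105 and 82.9 in the SMA libraries. The result therefore depended on which SMA library was present. Without SMA replicate 1, the median log2 fold change was -0.72 and 8 of 10 genes were lower at an unadjusted p of 0.05 in limma, all but Lama1 and Lama5, where 1.79% of all genes were lower. None of the 10 passed the adjusted p in that fit, in which the lowest value was 0.851, and over the alternatives tried the adjusted p of the 10 genes lay between 0.447 and 1. Without SMA replicate 3 the median was -0.18, and without control replicate 2 it was -0.35, with 0 of 10 genes lower in both, where 0.731% and 5.2% of all genes were lower. With both of these libraries left out, a choice made after seeing the data, the median was -0.13.

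**Figure D2:**
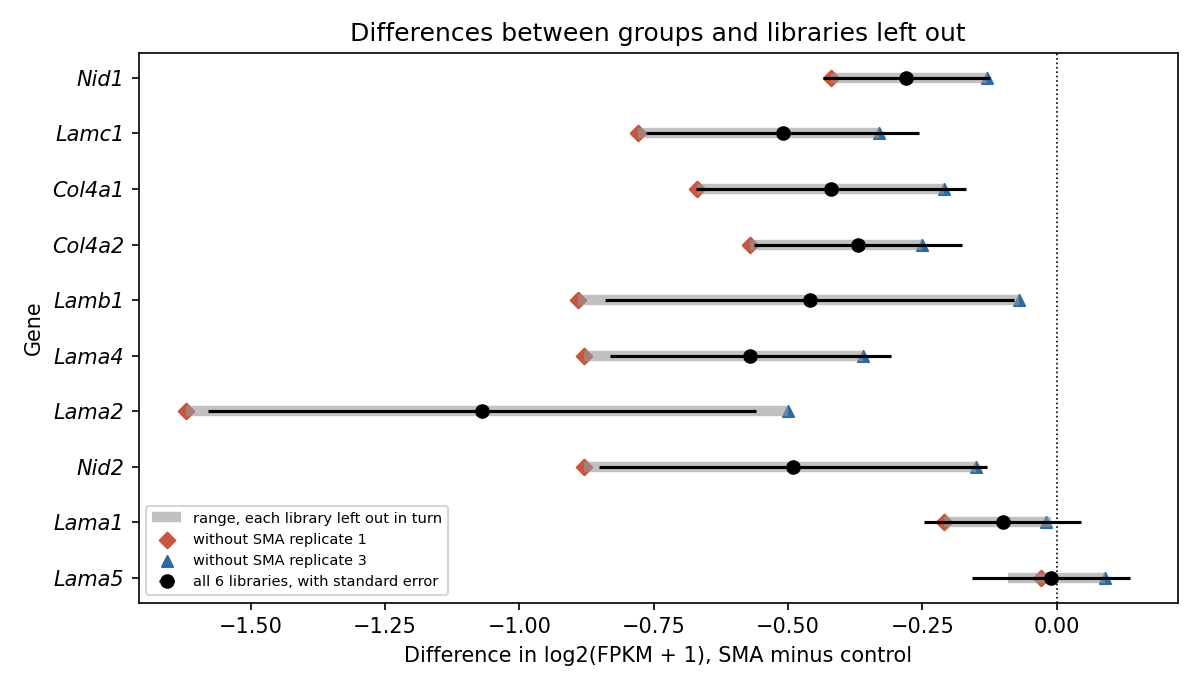
Difference in log2(FPKM + 1) between SMA and control for each gene, as points with the standard error from limma; grey bars span the values with each of the 6 libraries left out in turn, and diamonds and triangles mark the fits without SMA replicate 1 and without SMA replicate 3. For Lama2 the difference runs from -1.62 without SMA replicate 1 to -0.50 without SMA replicate 3, and for Lama5 the points lie on both sides of 0.

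Counts over all genes moved as well when a library was left out. Without control replicate 2, 862 genes were lower (5.2%) and 874 higher (5.27%) at an unadjusted p of 0.05, and without control replicate 3 these numbers were 712 and 1040. They were 573 and 1032 without control replicate 1. Leaving out SMA replicate 1, 2 or 3 gave 306, 142 and 125 lower genes and 238, 255 and 214 higher genes. The shares of all genes were 1.79% lower and 1.39% higher without SMA replicate 1, and 0.731% lower and 1.25% higher without SMA replicate 3. Counts over a list in a fit that leaves out a library are to be read against the shares of that fit. Rpph1 and Snora74a, both small noncoding RNA genes, passed an adjusted p of 0.05 without control replicate 2, and no basement membrane gene did.

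Col4a1 (ENSMUSG00000031502) and Col4a2 (ENSMUSG00000031503) encode the chains of the collagen IV found in most basement membranes, and they lie head to head on opposite strands at chr8:11198423-11312826 and chr8:11312805-11449287 of GRCm38. Their first exons share 22 bases. The stretch is shown because a pair of chains that form one protein start from it in opposite directions, which makes the ratio of the genes a natural readout. On the Col4a2 strand, chr8:11312801-11312830 (RefSeq promoter sequences of GRCm38.p6) reads as follows, with the bases that lie in both genes in capitals.
Col4a1 and Col4a2 start: cggcAGTGCGCGGGCGGCGTCTCCAAgggg
The deposited tables give both genes 1 merged span, and the sources do not state whether strand was used when fragments were assigned. Reads from the 22 shared bases can therefore not be assigned to either gene with certainty.

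Col4a1 was at 18.2, 25.0 and 26.0 FPKM in the controls and at 24.0, 15.8 and 12.4 FPKM in the SMA libraries. SMA replicates 2 and 3 were below every control and SMA replicate 1 was among them. The log2 fold change was -0.42 with a standard error of 0.251 (limma, adjusted p = 0.683), and the exact two-sided permutation test gave p = 0.2. It was -0.67 without SMA replicate 1, -0.21 without SMA replicate 3 and -0.36 without control replicate 2. With 3 libraries against 3, that test cannot go below 0.1, which limits every permutation result here. Col4a2 was at 17.9, 21.3 and 23.3 FPKM in the controls and at 21.3, 13.9 and 13.4 FPKM in the SMA libraries. SMA replicates 2 and 3 were again below every control and lay close together, and SMA replicate 1 was among the controls. Its log2 fold change was -0.37 with a standard error of 0.194 (limma, adjusted p = 0.683), between -0.57 without SMA replicate 1 and -0.25 without SMA replicate 3.

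The ratio of Col4a1 to Col4a2, which does not depend on how a library is scaled, was 1.02, 1.17 and 1.12 in the controls and 1.13, 1.14 and 0.920 in the SMA libraries. Both genes were thus at similar levels per length in each library. Ratios and chain shares of this kind were compared for 9 quantities, and for this one the exact permutation p was 0.7 (0.7 after adjustment over the 9). Without SMA replicate 3 the difference between the group means changed sign, from -0.0396 to 0.0312.

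Among the laminin alpha chains, which carry the sites for cell surface receptors, Lama2 (ENSMUSG00000019899, chr10:26980036-27619758) varied most. This chain is known from the sheaths of Schwann cells and muscle fibres, and its loss in humans and mice causes a congenital muscular dystrophy with abnormal peripheral myelin. Lama2 was at 10.8, 10.4 and 8.66 FPKM in the controls and at 10.2, 4.27 and 1.39 FPKM in the SMA libraries. SMA replicate 1 was among the controls, and the highest library was 7.73 times the lowest. The log2 fold change was -1.07 with a standard error of 0.510 (limma, adjusted p = 0.683; exact permutation p = 0.2). It was -1.62 without SMA replicate 1 and -0.50 without SMA replicate 3, so that each of these libraries moved it by more than 1.5 times.

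Lama4 (ENSMUSG00000019846, chr10:38965515-39110188), the alpha chain of capillary endothelium, was at 12.6, 11.5 and 12.5 FPKM in the controls and at 12.7, 6.72 and 5.69 FPKM in the SMA libraries. SMA replicate 1 was just above the highest control, and SMA replicates 2 and 3 were below every control. The log2 fold change was -0.57 with a standard error of 0.261 (limma, adjusted p = 0.683), with -0.88 without SMA replicate 1 and -0.36 without SMA replicate 3. Lama1 (ENSMUSG00000032796, chr17:67697259-67822647), a chain of early embryonic basement membranes that persists at the pia, was at 4.83, 4.42 and 5.73 FPKM in the controls and at 5.50, 4.32 and 4.03 FPKM in the SMA libraries. SMA replicates 2 and 3 were below every control and SMA replicate 1 was among them, as for Col4a1. The values lay closer together, however (log2 fold change -0.10, limma, adjusted p = 0.796). The fold change ran from -0.21 without SMA replicate 1 to -0.01 without control replicate 3. It was -0.02 without SMA replicate 3 and -0.17 without control replicate 2.

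Lama5 (ENSMUSG00000015647, chr2:180176373-180225859), a chain of vessels and epithelia, was at 1.81, 2.07 and 1.86 FPKM in the controls and at 1.97, 2.22 and 1.51 FPKM in the SMA libraries. The highest and the lowest value both came from SMA libraries, replicates 2 and 3. Its log2 fold change was -0.01 (limma, adjusted p = 0.977) and turned positive, to 0.02, without control replicate 2 and to 0.09 without SMA replicate 3. RefSeq start sites were available for 6 of the 10 genes, those of Col4a1, Col4a2, Lama2, Lama5, Lamb1 and Nid1. Only at Lama2 and Lama5 did the 250 bases before the start hold no annotated exon, and these are shown to let both starts be compared. Among the alpha chains, Lama2 had the largest and Lama5 the smallest SD as a percentage of its mean (51% and 12.8%). Capitals mark matches on either strand to GGGCGG, known as the GC box, to the promoter element CCAAT, which many genes carry upstream of their start, or to the element TATAAA, at which the general transcription machinery can assemble. These occur in 32.7%, 33.8% and 12.4% of the 32851 RefSeq windows of this length.
Lama2, chr10:27616943-27617192, minus strand, within an intron of the annotated gene: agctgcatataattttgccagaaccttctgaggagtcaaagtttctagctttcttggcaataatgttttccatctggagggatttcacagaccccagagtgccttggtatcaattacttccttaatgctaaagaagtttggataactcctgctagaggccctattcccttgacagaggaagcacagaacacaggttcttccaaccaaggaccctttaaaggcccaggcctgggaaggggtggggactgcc
Lama5, chr2:180225860-180226109, minus strand, upstream of the gene: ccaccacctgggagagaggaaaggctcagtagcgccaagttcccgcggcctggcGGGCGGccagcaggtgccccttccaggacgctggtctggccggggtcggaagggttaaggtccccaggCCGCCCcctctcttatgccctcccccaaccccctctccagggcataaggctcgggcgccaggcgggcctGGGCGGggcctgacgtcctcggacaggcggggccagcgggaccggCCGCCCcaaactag
The Lama5 window held GGGCGG 4 times over both strands and was 72.4% G and C, whereas the Lama2 window held none of the 3 motifs and was 47.2% G and C. A match is a run of letters and not a measured binding site.

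Each alpha chain was also expressed as a share of the summed FPKM of Lama1 to Lama5 within a library. Lama2 made up 32.8%, 33.3% and 26.7% in the controls and 30.0%, 20.2% and 8.37% in the SMA libraries. Its share was thus lower in SMA replicates 2 and 3 than in any control, and SMA replicate 1 overlapped them (exact permutation p = 0.2, 0.36 after adjustment over 9 quantities). Lama4 was the largest share in every library, at 38.5%, 36.9% and 38.7% in the controls and 37.4%, 31.8% and 34.1% in the SMA libraries. Lama1 took 14.7%, 14.2% and 17.7% in the controls and 16.2%, 20.4% and 24.2% in the SMA libraries. Lama5 took 5.52%, 6.62% and 5.76% in the controls and 5.80%, 10.5% and 9.05% in the SMA libraries. The remainder was Lama3, a chain of epithelial laminins, with 8.38% to 11.1% in the controls and 10.6%, 17.1% and 24.3% in the SMA libraries. Each of these shares also had an exact permutation p of 0.2 and overlapping groups.

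**Figure D3:**
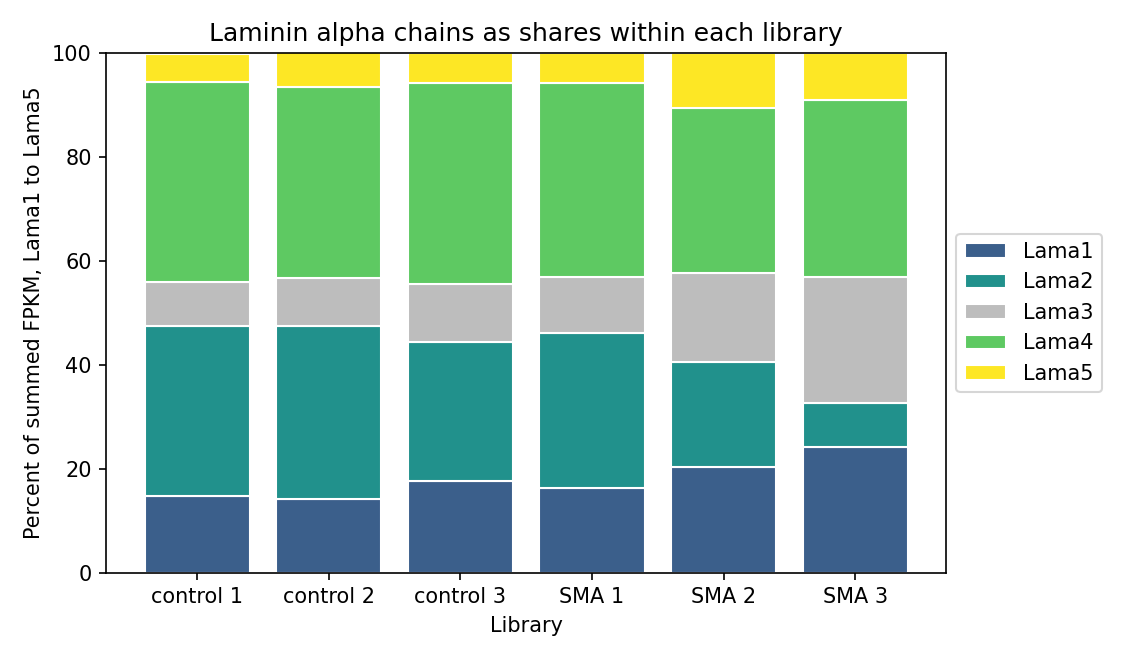
Share of each laminin alpha chain in the summed FPKM of Lama1 to Lama5, as stacked bars for each of the 6 libraries. Lama2 is at 26.7% to 33.3% in the controls and at 8.37% in SMA replicate 3, where Lama1 and Lama3 take 24.2% and 24.3%.

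Lamb1 (ENSMUSG00000002900, chr12:31265234-31329644) and Lamc1 (ENSMUSG00000026478, chr1:153218922-153332786) encode the beta and gamma chains that most laminins share. Lamb1 was at 14.9, 16.8 and 16.3 FPKM in the controls and at 21.4, 10.8 and 6.16 FPKM in the SMA libraries. The SMA libraries lay on both sides of the controls, with a 3.47-fold span. The log2 fold change was -0.46 with a standard error of 0.380 (limma, adjusted p = 0.683), from -0.89 without SMA replicate 1 to -0.07 without SMA replicate 3. Lamb1 made up 58.4%, 59.7% and 58.2% of the beta chains Lamb1 to Lamb3 in the controls and 60.7%, 51.6% and 37.6% in the SMA libraries (exact permutation p = 0.4, 0.514 after adjustment). The controls lay close together, whereas the SMA libraries differed among themselves.

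Lamc1 was at 25.7, 35.0 and 25.4 FPKM in the controls and at 29.1, 17.1 and 15.2 FPKM in the SMA libraries. Control replicate 2 was the highest and SMA replicate 1 the next. Its log2 fold change was -0.51 with a standard error of 0.254 (limma, adjusted p = 0.683), -0.36 without control replicate 2, -0.78 without SMA replicate 1 and -0.33 without SMA replicate 3. Lamc1 held 88.0% to 93.4% of the gamma chains Lamc1 to Lamc3 in the controls and 86.8% to 89.3% in the SMA libraries, so it remained the main gamma chain in all 6 (exact permutation p = 0.3, 0.45 after adjustment).

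Nidogens link laminin to collagen IV. Nid1 (ENSMUSG00000005397, chr13:13437551-13512269) was at 30.3, 31.5 and 28.9 FPKM in the controls and at 30.3, 25.0 and 19.9 FPKM in the SMA libraries. Next to Lama1 and Lama5 it varied least, with a log2 fold change of -0.28 with a standard error of 0.155 (limma, adjusted p = 0.683), -0.42 without SMA replicate 1 and -0.13 without SMA replicate 3. Nid2 (ENSMUSG00000021806, chr14:19751265-19811787), which can partly replace Nid1 in mice that lack it, was at 7.99, 10.7 and 7.09 FPKM in the controls and at 10.6, 5.29 and 3.21 FPKM in the SMA libraries. SMA replicate 1 was again level with the highest control. Its log2 fold change of -0.49 with a standard error of 0.361 (limma, adjusted p = 0.683) became -0.88 without SMA replicate 1, -0.15 without SMA replicate 3 and -0.34 without control replicate 2. The ratio of Nid1 to Nid2 was 3.79, 2.96 and 4.07 in the controls and 2.86, 4.73 and 6.20 in the SMA libraries (exact permutation p = 0.5, 0.562 after adjustment).

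By mean FPKM over the 6 libraries, a level per length, the order was Nid1 (27.6 ± 4.42, SD, n = 6), Lamc1, Col4a1, Col4a2, Lamb1, Lama4, Lama2, Nid2, Lama1 and Lama5 (1.91 ± 0.244, SD, n = 6). Of the 9 neighbouring pairs, only Lama1 and Lama5 were further apart than the larger SD of the pair. Lama2 and Nid2 were the least distinct, since Lama2 was the higher one in 2 of 6 libraries. This order pools both groups, and the mean of Lama2 was above that of Nid2 in the controls (9.94 against 8.58 FPKM) and below it in the SMA libraries (5.29 against 6.36 FPKM).

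The genes most like Col4a1 were sought by the root mean square difference of log2(FPKM + 1) over the 6 libraries, after each gene's own mean had been subtracted, among 10287 other genes whose mean reached 5 FPKM. The 5 nearest were Col15a1 (0.086), Col6a1 (0.0988), Itih5 (0.110), Col4a2 (0.114) and Mal (0.142). Col15a1 encodes a basement membrane collagen, Col6a1 a collagen of the adjoining matrix, Itih5 a hyaluronan-binding protein and Mal a myelin protein. Lamc1 ranked 14, Lama4 27, Nid1 29, Lamb1 62 and Nid2 125, while Lama2, with its wider range, ranked 8818. Lama1 and Lama5 were below the minimum.

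The cell types that make basement membrane were followed with marker lists, since in whole tissue fewer cells of a type and less RNA per cell cannot be told apart. The 15 endothelial markers summed to 76.2, 105 and 86.3 FPKM in the controls and to 67.0, 53.7 and 56.6 FPKM in the SMA libraries. This sum was thus below the controls in SMA replicate 1 as well, but its most abundant gene, Cldn5, weighed heavily in it. Cldn5 made up 16.4 FPKM of the sum in SMA replicate 1 and 25.8 FPKM in control replicate 1. Single markers differed. In 9 of the 15 every SMA library was below every control, beside 6.67% of all genes, while Flt1 was highest in SMA replicate 1 (6.17 FPKM). At an unadjusted p of 0.05 in limma, 7 of the 15 were lower and 0 higher, beside 2.39% and 3.4% of all genes, and 0 passed the adjusted p. The count of lower genes was 3 without SMA replicate 3 and 7 without SMA replicate 1, where 0.731% and 1.79% of all genes were lower. Without control replicate 2 there were 8 lower and 1 higher, beside 5.2% and 5.27% of all genes. Cldn5, the claudin of endothelial tight junctions, was at 25.8, 20.4 and 25.0 FPKM in the controls and at 16.4, 15.7 and 14.4 FPKM in the SMA libraries (log2 fold change -0.58, limma, adjusted p = 0.683). Kdr, a receptor for vascular growth factor, had a log2 fold change of -0.53 (limma, adjusted p = 0.683) and of -0.37 without control replicate 2.

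The summed FPKM of the basement membrane genes was 1.90, 1.61 and 1.81 times that of the endothelial markers in the controls and 2.49, 1.96 and 1.47 times in the SMA libraries. SMA replicate 1 had the highest ratio and SMA replicate 3 the lowest, and the difference between the group means of 0.202 became -0.0579 without SMA replicate 1. SMA replicates 1 and 2 thus lay above every control in this ratio, and only SMA replicate 3 lay below them. With other references this order changed in part. Relative to Cldn5 alone the difference was 0.828, between group means of 6.71 in the controls and 7.54 in the SMA libraries. SMA replicates 2 and 3 then both lay among the controls, at 6.70 and 5.74 against 5.62 to 8.28. With means of log2(FPKM + 1) in place of sums the difference was 0.0169, and SMA replicate 2 again lay among the controls. Relative to Pecam1 alone the difference was 4.75, between group means of 27.2 in the controls and 31.9 in the SMA libraries. For the endothelial list these means were 1.77 and 1.97, so the differences are on different scales.

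The summed markers of Schwann cells and of fibroblasts were also lowest in SMA replicate 3. This was not particular to them. The pericyte and smooth muscle sum (57.1 FPKM) and the ependymal sum (64.3 FPKM) were lowest there too. So were the sums of the other collagen IV and laminin chains, of proteoglycans and linkers, of receptors and of collagen processing genes. The endothelial sum was lowest in SMA replicate 2. The 8 Schwann markers, a list shortened after the values were seen, summed to 72.1, 65.1 and 96.3 FPKM in the controls and to 81.7, 48.4 and 23.9 FPKM in the SMA libraries. Pmp22, the most abundant of the 8, was at 4.56 FPKM in SMA replicate 3 against 20.4 to 47.2 FPKM elsewhere, whereas Sox10, which oligodendrocytes also express, was between 11.6 and 14.1 FPKM in the 6 libraries. Of the 8 genes, 0 were lower at an unadjusted p of 0.05 in limma with all libraries and 4 without SMA replicate 1, beside 2.39% and 1.79% of all genes in these fits. The 14 markers of meningeal and perivascular fibroblasts summed to 270.1, 853 and 213 FPKM in the controls and to 289, 133 and 67.7 FPKM in the SMA libraries. Igf2, the most abundant and also a gene of newborn liver, was at 638 FPKM in control replicate 2, and Col1a2 was at 22.1 FPKM in SMA replicate 3 against 34.2 to 67.3 FPKM elsewhere. Of these 14 genes, 1 was lower at an unadjusted p of 0.05 with all libraries, 11 without SMA replicate 1 and 0 without SMA replicate 3 or without control replicate 2. The shares of all genes were 2.39% with all libraries, 1.79% without SMA replicate 1, 0.731% without SMA replicate 3 and 5.2% without control replicate 2. The part of these cell types in the values of the basement membrane genes was not tested.

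**Figure D4:**
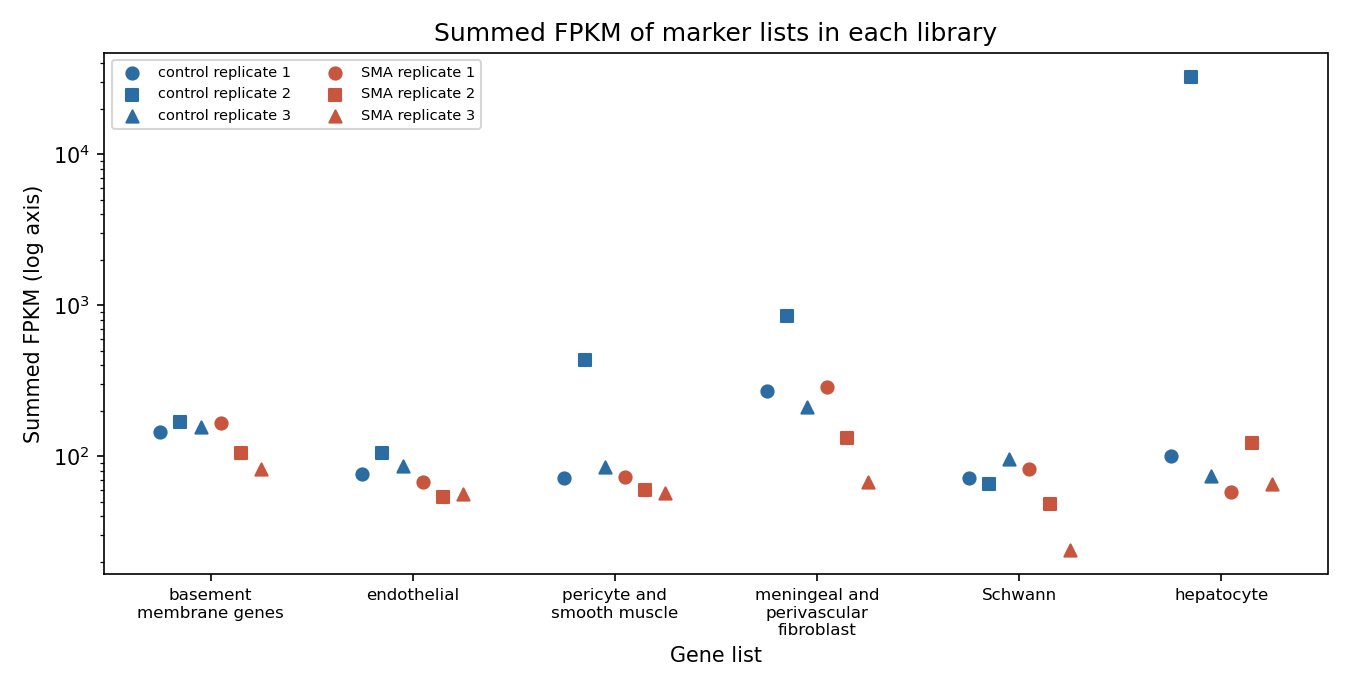
Summed FPKM of the 10 basement membrane genes and of 5 marker lists in each library, on a log axis. The Schwann sum is 23.9 FPKM in SMA replicate 3 and the hepatocyte sum 32571 FPKM in control replicate 2, both apart from the other libraries.

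The 13 pericyte and smooth muscle markers summed to 71.9, 432 and 84.3 FPKM in the controls and to 72.3, 59.6 and 57.1 FPKM in the SMA libraries. Vtn, also a plasma protein gene of the liver, made up 359 FPKM of the sum in control replicate 2, and Rgs5, a pericyte gene, was lower in every SMA library than in every control (17.9, 17.2 and 24.6 FPKM against 15.9, 13.6 and 14.9 FPKM). Of the 12 genes tested, 4 were lower and 0 higher at an unadjusted p of 0.05 in limma, beside 2.39% and 3.4% of all genes. Of these genes, 3 were lower without control replicate 2 and 1 without SMA replicate 3, beside 5.2% and 0.731% of all genes. The part of the liver markers of control replicate 2 in these values was not tested. Without that library the basement membrane genes had the median given above, -0.35.

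The 9 astrocyte markers had a median log2 fold change of 0.17, with 0 lower and 1 higher at an unadjusted p of 0.05 in limma, beside 2.39% and 3.4% of all genes. The medians of the endothelial, pericyte, fibroblast and Schwann lists were -0.52, -0.39, -0.48 and -0.44. In the same order they were -0.55, -0.47, -0.83 and -0.68 without SMA replicate 1. Without SMA replicate 3 they were -0.50, -0.40, -0.20 and -0.22. Without control replicate 2 the astrocyte median was 0.03, with 1 lower and 1 higher, beside 5.2% and 5.27% of all genes. The gene higher with all libraries was Aldoc, at 222, 138 and 195 FPKM in the controls and 232, 267 and 265 FPKM in the SMA libraries, and Gfap was between 117 and 167 FPKM.

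The other genes of the basement membrane pathway were taken list by list. Of 6 tested among the other collagen IV and laminin chains, 0 were lower or higher at an unadjusted p of 0.05 in limma, with a median log2 fold change of -0.07 that was -0.25 without SMA replicate 1, 0.06 without SMA replicate 3 and -0.17 without control replicate 2. Lamb2, the beta chain of synaptic and vessel laminins, was between 9.77 and 13.5 FPKM in the 6 libraries, Col4a5 between 3.18 and 5.82 FPKM and Lama3 between 2.75 and 4.04 FPKM. Of 20 proteoglycans and linkers, 0 passed the unadjusted p and the median was -0.11. Without SMA replicate 1, 2 of them were lower, beside 1.79% of all genes. Sparc, a collagen-binding protein, ranged from 98.3 to 122 FPKM and Agrn, the heparan sulfate proteoglycan agrin, from 85.9 to 115 FPKM. Col18a1 was at 59.0 FPKM in control replicate 2 and between 2.58 and 8.99 FPKM elsewhere.

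Among 13 receptors for laminin and collagen, 3 were lower and 0 higher at an unadjusted p of 0.05 in limma, beside 2.39% and 3.4% of all genes, and the median log2 fold change was -0.04, or -0.09 without control replicate 2. The count of lower receptors was 4 without SMA replicate 1, 0 without SMA replicate 3 and 3 without control replicate 2. In the same order, 1.79%, 0.731% and 5.2% of all genes were lower in these fits. Itgb1, the beta chain of most laminin and collagen integrins, was at 51.8, 64.3 and 47.4 FPKM in the controls and at 43.7, 40.3 and 36.2 FPKM in the SMA libraries (log2 fold change -0.43, limma, adjusted p = 0.683). Itga1, its partner in a collagen IV receptor, was at 3.18, 6.90 and 3.93 FPKM in the controls and at 2.43, 2.16 and 1.82 FPKM in the SMA libraries (log2 fold change -0.80, adjusted p = 0.683). Of the 13 receptors, 4 were lower in every SMA library than in every control, beside 6.67% of all genes. These were Itgb1, Itga1, Itga2 and Ddr2, the third of them named after its values were seen. Without control replicate 2 the log2 fold changes were -0.30 for Itgb1 and -0.54 for Itga1. Ddr2, a collagen receptor kinase, had a log2 fold change of -0.47 (adjusted p = 0.683), while Dag1, which encodes dystroglycan, and Ddr1 were at 0.07 and 0.12, and at -0.01 and 0.05 without control replicate 2.

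Genes for collagen processing gave 1 lower and 1 higher of 18 tested at an unadjusted p of 0.05 in limma, beside 2.39% and 3.4% of all genes, with a median of -0.04. There were 4 lower and 0 higher without SMA replicate 1, 0 of either without SMA replicate 3, and 2 lower and 1 higher without control replicate 2. In the same order, the shares of all genes lower and higher were 1.79% and 1.39%, 0.731% and 1.25%, and 5.2% and 5.27%. P4ha1 and P4ha2, alternative subunits of prolyl 4-hydroxylase, had log2 fold changes of -0.27 and 0.34 (adjusted p = 0.683 for both). P4hb, their shared partner, was at 144 FPKM in control replicate 2 and between 43.2 and 49.7 FPKM elsewhere, and the transport genes Sec23a and Mia3 were between 36.0 and 39.8 FPKM and between 27.7 and 37.3 FPKM. Of 13 matrix proteases and inhibitors, 1 was lower and 0 higher, again beside 2.39% and 3.4% of all genes, with a median of -0.05, which was -0.18 without SMA replicate 1 and 0.00 without SMA replicate 3, while 2 were lower without control replicate 2 and 0 without SMA replicate 3. That gene was Mmp14, a membrane-bound protease, at 20.6, 25.6 and 21.4 FPKM in the controls and 19.5, 17.1 and 15.4 FPKM in the SMA libraries. Timp2, Mmp16 and Timp3 were the most abundant of the list, with log2 fold changes of 0.25, 0.26 and -0.02, which were 0.02, 0.12 and -0.17 without control replicate 2.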

How the data were processed

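Libraries were rRNA-depleted and strand-specific, and the authors aligned reads with HISAT2 and deposited FPKM from Cufflinks. The submitters' processing notes name mm10, and the versions and annotation release are not given in the sources used here. Genes absent from a library were set to 0 FPKM. Genes whose mean reached 0.5 FPKM were compared on log2(FPKM + 1) with lmFit and eBayes (with trend) of limma 3.58.1 in R 4.3.3, with Benjamini-Hochberg adjustment. The DESeq counts of the study's methods were not used here. Exact two-sided permutation tests (scipy 1.17.1) were run for single genes, ratios and shares, and none for sums over genes. Gene spans are from GENCODE M21 and starts from RefSeq.

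The members and the lists were chosen with earlier results of these data known. Named genes were all 10 members, the 3 most abundant of each pathway list with any at an unadjusted p under 0.05, the 2 most abundant of each cell type list, and the 5 genes nearest Col4a1. The Schwann list was shortened to 8 genes after the values were seen, for a reason unrelated to them. Tat, Pmp2, Rpph1, Snora74a and genes named as the single call of a list were chosen after their values were seen. Alternatives were a pseudocount of 0.1, no filter or a minimum mean of 1 FPKM, quantile normalization, median ratio scaling, eBayes without trend, the replicate number as a block, other endothelial references and each library left out. Leaving out control replicate 2 and SMA replicate 3 together was added after seeing the data.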

Additional observations from a re-analysis of the deposited data

How the results depend on the processing

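Of 140 recomputed log2 fold changes of the 10 genes, 135 kept their sign. Lama5 turned positive at 0.07 under quantile normalization, 0.02 without control replicate 2, 0.09 without SMA replicate 3 and 0.12 without both libraries. It lay between -0.09 and -0.03 with any other single library left out. Nid2 was at 0.00043 without both control replicate 2 and SMA replicate 3. Among 63 recomputed ratios and shares, 60 kept their sign, but their size moved. With 1 library left out the group difference ran from 0.187 to 1.86 for the Nid1 to Nid2 ratio, and in percent from -16.7 to -5.85 for the Lama2 share, from -14.2 to -2.63 for the Lamb1 share and from -3.34 to -0.637 for the Lamc1 share. Without both libraries the group difference of the Col4a1 to Col4a2 ratio was 0.0667 and that of Nid1 to Nid2 was -0.137, and with 1 library left out the former ran from -0.0822 to 0.0312. The ratio to the endothelial markers ran from -0.0579 to 0.456. For each, the cause was not tested.

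With 1 library left out, 0 to 8 of the 10 genes were lower at an unadjusted p of 0.05, 125 to 862 of all genes were lower, 214 to 1040 were higher and 0 to 2 passed an adjusted p. Without both libraries 1 passed. Without the filter on low FPKM 882 genes were higher. Median ratio scaling left 1 of the 10 lower. Deviations of same-numbered libraries from their group means had correlations of -0.037, 0.0161 and 0.0766, and all pairs lay between -0.0554 and 0.0766. Such a check on 3 libraries per group cannot show whether the numbers pair the samples. With the replicate block 303 genes were lower and 356 higher, and 2 of the 10, Lama2 and Lama4, were lower. Depth in reads is unknown, which limits what low values such as those of Lama5 can show.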

Other observations

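Further cell types were followed with the same test. The 9 neuronal markers had a median of 0.29 and 0.09 without control replicate 2, with 0 lower or higher with all libraries and 2 higher without that library, where 5.27% of all genes were higher. Snhg11, a long noncoding RNA of neurons, was between 337 and 493 FPKM.

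Of 6 ependymal genes tested, 0 were lower or higher. Vim was between 50.3 and 87.7 FPKM, and Rarres2, also a liver gene, was at 101 FPKM in control replicate 2 and at 1.68 to 3.23 FPKM elsewhere. The 8 Hox genes of spinal cord position had 0 lower and 1 higher (Hoxa7), or 2 lower and 1 higher without control replicate 2. The shares of all genes lower and higher were 2.39% and 3.4% with all libraries and 5.2% and 5.27% without control replicate 2. Hoxd10, a gene of lumbar segments, was at 50.7 FPKM in control replicate 3 against 15.1 to 27.0 FPKM elsewhere.

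Skeletal muscle and bone markers were low in every library. The 9 muscle genes summed to 1.97 to 8.14 FPKM and the 8 bone and cartilage genes to 6.63 to 10.5 FPKM. Of the 4 tested in each list, 0 were lower or higher. Acta1 reached 3.36 FPKM, Ttn 1.77 FPKM, Alpl 6.24 FPKM and Col2a1 3.22 FPKM at most.

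Control replicate 2 also stood apart in 2 further lists. The 10 genes of liver sinusoid and stellate cells summed to 143 FPKM there and to 82.0 to 94.3 FPKM elsewhere. Most of this sum was Reln, which neurons of the cord also express (77.3 to 89.2 FPKM), while Stab2 was at 19.1 FPKM in control replicate 2 and at most 0.224 FPKM elsewhere. The 9 erythroid genes summed to 18855 FPKM there and to 1115 to 1862 FPKM elsewhere, with Hbb-bs at 7026 FPKM and Hba-a1 at 5964 FPKM. In the hepatocyte list Trf was at 4903 FPKM in control replicate 2. In these 3 lists 0 genes were lower or higher at an unadjusted p of 0.05 in limma, and 1 of 7 erythroid genes tested was lower without control replicate 2, where 5.2% of all genes were lower.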
